A study of Mus musculus with 84 samples.

Results

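The genes described here encode the voltage-gated sodium channels, the voltage-gated calcium channels, the HCN channels and the leak channel NALCN of the mouse. They were chosen by name, as the protein-coding genes whose symbol starts with Scn and a digit, with Cacna1, Cacna2d or Cacnb, or with Hcn and a digit, together with Nalcn, a rule that uses no measured value. This gave 37 members among 20956 protein-coding and 55401 gene IDs in all: 10 sodium channel alpha subunits, 4 sodium channel beta subunits, 10 calcium channel alpha1 subunits, 4 alpha2delta subunits, 4 calcium channel beta subunits, 4 HCN channels and Nalcn. Of these, 33 had enough counts to be tested, and Scn4a, Scn10a, Scn11a and Cacna1s did not.

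RNA of neuronal nuclei, sorted by the nuclear protein NeuN from the frontal cortex, had been sequenced from 16 mice of the strain 129S6/SvEvTac at 12 weeks of age. Of these, 4 had been injected with vehicle, and 4 each had been given 1 injection of DOI (2,5-dimethoxy-4-iodoamphetamine), a psychedelic that activates serotonin receptors, and sampled 24 h, 48 h or 7 days later. No genetic change is named for any group, and each mouse gave 2 libraries, whose counts were summed, so that the mouse is the replicate. The nuclei pool all NeuN-positive neurons, and RNA outside the nucleus was not measured, so fewer cells of a type and less RNA per cell cannot be told apart in these values.

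Voltage-gated sodium channels carry the upstroke of the action potential: the alpha subunit forms the pore, and the beta subunits alter gating and surface expression. Voltage-gated calcium channels turn depolarisation into calcium entry through a pore-forming alpha1 subunit of the L-type (Cav1), presynaptic (Cav2) or low-threshold T-type (Cav3) family, while alpha2delta and beta subunits control how many channels reach the membrane. HCN channels open on hyperpolarisation and set the resting conductance and dendritic integration of cortical pyramidal neurons, and NALCN carries a sodium leak that depolarises the resting neuron.

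Sequence before a RefSeq start is shown for 3 genes that rose after DOI (Scn8a, Cacna1c and Cacnb1) and for Cacnb2, which fell, whose calls at 24 h and 48 h held when any single mouse was left out. Cacna1e held as well, but its listed start lies far inside the gene, and its window is counted below without being shown. Each line is the 250 bases before the outermost RefSeq start in the table used (build GRCm38.p6), 5′ to 3′ on the strand of the gene, and capitals mark the GC box GGGCGG or its reverse complement. The windows are chr15:100870395-100870644 (plus strand), chr6:119196410-119196659 (minus strand), chr11:98022628-98022877 (minus strand) and chr2:14604056-14604305 (plus strand). All 4 windows lie inside the gene spans of the count files, so an annotated start lies further upstream in each gene, and which starts are used in these neurons was not measured.
Scn8a: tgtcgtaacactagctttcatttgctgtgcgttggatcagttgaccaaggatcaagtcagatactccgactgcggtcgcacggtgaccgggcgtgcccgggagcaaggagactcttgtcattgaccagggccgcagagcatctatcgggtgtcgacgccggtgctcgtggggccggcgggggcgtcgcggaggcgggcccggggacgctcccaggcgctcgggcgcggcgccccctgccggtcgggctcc
Cacna1c: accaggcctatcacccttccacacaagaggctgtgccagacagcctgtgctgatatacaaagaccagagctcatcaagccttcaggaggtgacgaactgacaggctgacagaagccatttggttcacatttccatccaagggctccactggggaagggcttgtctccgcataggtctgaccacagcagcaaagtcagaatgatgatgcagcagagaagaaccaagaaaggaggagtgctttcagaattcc
Cacnb1: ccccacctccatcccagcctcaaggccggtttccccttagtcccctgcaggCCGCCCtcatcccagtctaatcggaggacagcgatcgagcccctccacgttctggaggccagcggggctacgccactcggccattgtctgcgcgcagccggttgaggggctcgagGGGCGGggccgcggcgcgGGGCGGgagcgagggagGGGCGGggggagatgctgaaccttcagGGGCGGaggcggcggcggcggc
Cacnb2: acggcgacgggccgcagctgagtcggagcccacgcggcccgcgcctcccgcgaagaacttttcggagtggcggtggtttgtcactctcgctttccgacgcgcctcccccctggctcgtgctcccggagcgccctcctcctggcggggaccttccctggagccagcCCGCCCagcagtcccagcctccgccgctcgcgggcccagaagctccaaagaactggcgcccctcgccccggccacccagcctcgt
The 4 windows were not all alike in GC boxes or in GC content. Cacnb1 held 5 GC boxes and Cacnb2 1, while Scn8a and Cacna1c held 0, against 32.7% of all 32851 windows of this length with at least 1. The GC content was 68.0% for Scn8a, 51.6% for Cacna1c, 73.2% for Cacnb1 and 73.2% for Cacnb2, with a median of 52.4% over all windows. The table held 27 of the 37 members. A GC box was present in 4 of the 11 windows of members past the threshold at 24 h or 48 h and in 8 of the 16 windows of the other members. The motifs TGACGTCA (the cAMP response element), TGACTCA (AP-1) and CACGTG (the E-box), searched on both strands, were found in 0 of the 27 windows and in 1.55%, 4.46% and 6.02% of all windows. GCGTGGGCG (the EGR motif) was found in 1 window, that of Scn7a (0.536% of all windows), where it overlapped the GC box, and TATAAA (the TATA box) in 1, that of Cacna1d (12.4% of all windows).

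Levels are given as CPM, gene counts scaled to the sequencing depth of the mouse, and gene positions as in the count files (mm10). Vehicle mice had 9151680 to 11517452 counts each, 24 h mice 6441396 to 8090559, 48 h mice 5834248 to 7344355 and 7 days mice 6972577 to 12354785. Rn18s-rs5, a ribosomal RNA gene, took 69.4 to 101 CPM of total counts in vehicle mice. The 24 h range was 3284 to 15730, the 48 h range 5230 to 16600, and the 7 days mice 1 to 4 had 83.5, 6327, 60.7 and 4737 CPM. The mitochondrial share of counts was 0.0171% to 0.0701% in vehicle mice, 0.0621% to 0.101% at 24 h, 0.108% to 0.268% at 48 h, and 0.0413%, 0.130%, 0.0210% and 0.114% in the 7 days mice. In total counts and Rn18s-rs5, vehicle mice overlapped the 24 h and 48 h mice in neither measure. Depth, the Rn18s-rs5 share and the DOI group therefore cannot be told apart there. For the mitochondrial share, vehicle mice overlapped the 24 h mice but not the 48 h mice. At 48 h this share cannot be told apart from the DOI group either. The 5 neuron markers (Rbfox3, which encodes NeuN, Snap25, Syt1, Stmn2 and Tubb3) were counted in every mouse. They summed to 5610 to 5814 CPM in vehicle and 3853 to 6277 CPM in DOI mice, and 3 of the 5 passed at each of 24 h and 48 h, 2 higher and 1 lower. The endothelial marker Cldn5 was at 0 in 10 of the 16 mice and the astrocyte marker Gfap in 7.

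In vehicle mice the channel genes spanned a wide range once counts were set against exon length. Among the tested members Scn2a had the highest level per kilobase of exon, 51.5 ± 6.94 CPM per kb (SD, n = 4), followed by Scn1a at 39.7 ± 4.12, and the mice of these neighbours overlapped. Both encode pore subunits of the main brain sodium channels. Every Scn1a value lay above those of the next gene, Cacna2d1, at 30.3 ± 3.42 CPM per kb. Cacnb3 (26.3 ± 1.93), Cacnb4 (24.4 ± 1.85) and Scn2b (22.7 ± 1.88) followed with overlapping neighbours. Scn8a stood at 18.6 ± 0.467 CPM per kb and did not overlap Scn2b.
The highest calcium channel pores, Cacna1b and Cacna1e, were at 10.8 ± 2.37 and 9.67 ± 2.73 CPM per kb, and Cacna1c, the main cardiac and neuronal L-type pore, was at 1.2 ± 0.173. Nalcn was at 11.04 ± 0.601 CPM per kb. Hcn3 (8.69 ± 2.68) lay above Hcn2 (0.870 ± 0.222) and Hcn4 (0.443 ± 0.112). At the low end, Cacna2d4 was at 0.435 ± 0.101 CPM per kb and overlapped Cacna1f at 0.274 ± 0.0593.

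**Figure D1:**
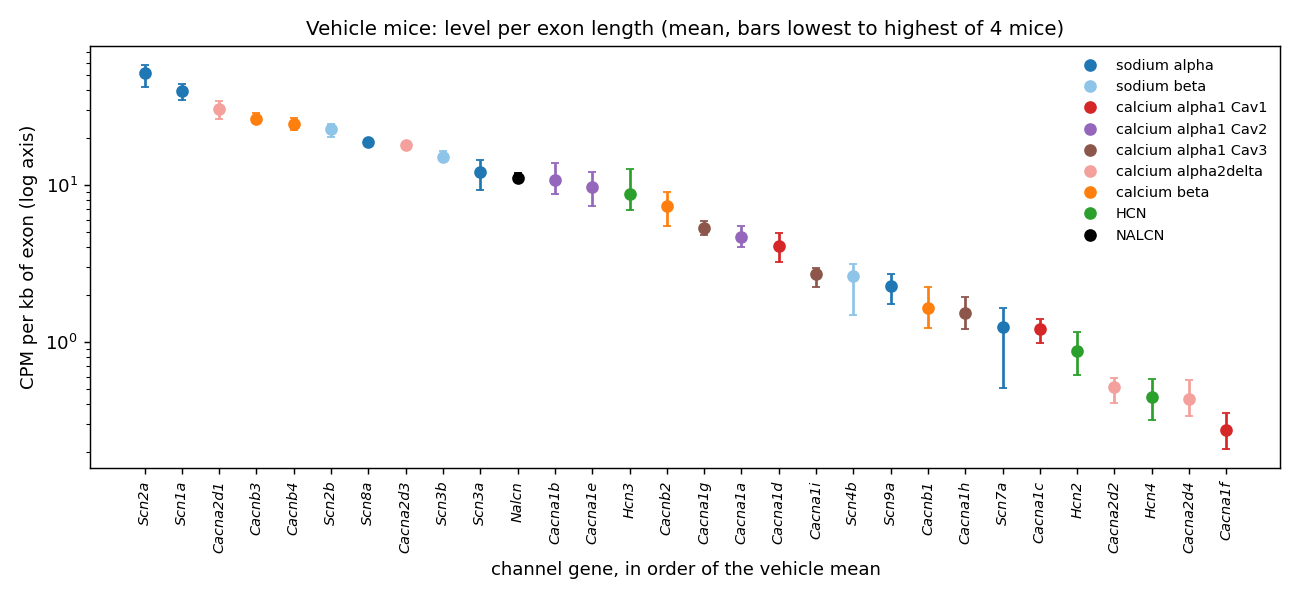
Level of 30 tested channel genes in vehicle mice, as CPM per kilobase of exon on a log axis, in order of the mean; points are means and bars run from the lowest to the highest of 4 mice. The levels run from 51.5 CPM per kb for Scn2a to 0.274 CPM per kb for Cacna1f.

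At 24 h after DOI the pores of several calcium channels and the sodium channel Scn8a were 1.52 to 2.14 times their vehicle level, while Scn2a and Cacnb2 were lower. With edgeR's quasi-likelihood F test and adjustment by Benjamini-Hochberg over all 17941 genes tested, 12 of the 33 members passed the threshold of 0.05, 8 higher and 4 lower. This is 36.4% of the members against 24.2% of all tested genes (13.8% higher and 10.4% lower) and 24% of tested protein-coding genes. The median log2 fold change was 0.35 over the members, 0.03 over all tested genes and -0.08 over protein-coding genes. Values of the 4 DOI mice lay outside those of the 4 vehicle mice for 10 members on the higher and 4 on the lower side, against 35.7% of all tested genes (18.5% higher and 17.2% lower).
The picture at 48 h was similar, with more members called on the higher side. Of the 33 members 16 passed, 14 higher and 2 lower, which is 48.5% against 30.1% of all tested genes (16.8% higher and 13.3% lower) and 29.8% of protein-coding genes. The median log2 fold change was 0.30 over the members, 0.02 over all tested genes and -0.11 over protein-coding genes. The groups did not overlap for 14 members on the higher and 4 on the lower side, against 38.1% of all tested genes (19.2% higher and 19% lower). Both comparisons use the same vehicle mice, so they are not independent.
The calls at both times were 10, among them Scn8a, Cacna1a, Cacna1b, Cacna1c, Cacna1d, Cacna1e, Cacna1h and Cacnb1 on the higher and Cacnb2 on the lower side. They made up 83.3% of the calls at 24 h and 62.5% of those at 48 h. Scn2a was among those that passed at 24 h alone, and Scn3a, Scn3b, Scn4b, Cacna1i and Cacna2d2 among those at 48 h alone, while 15 tested members passed at neither time. With the Rn18s-rs5 share as a covariate 0 members passed at 24 h and 0 at 48 h, and with the mitochondrial share 1 (Cacnb2) and 0. Over all tested genes 0% and 0% passed after adjustment with the first covariate and 1.47% and 0% with the second. Before adjustment 2 and 1 members were under 0.05 with the first and 8 and 3 with the second. The share of all tested genes under 0.05 before adjustment was not counted in these fits. With the Rn18s-rs5 share the median over the members turned negative, at -0.13 at 24 h and -0.16 at 48 h, and 14 of 33 members were positive at each time in place of 24 and 22. The Scn8a log2 fold change, for example, was then 0.31 at 24 h and 0.26 at 48 h with the Rn18s-rs5 share, in place of 1.03 and 1.04, and that of Cacna1d changed sign to -0.34 and -0.18. The Rn18s-rs5 fit was added after seeing the data. So was a fit without the 3 mice whose file header holds another mouse number than the label. These are mouse 1 of 24 h, mouse 2 of 48 h and mouse 2 of 7 days. In that fit 10 members passed at 24 h and 14 at 48 h, against 19.4% and 25.2% of all tested genes. Scn2a, Cacna1a and Cacna1b were among the calls lost there at 24 h, and Scn3a and Cacna1b were those lost at 48 h. Leaving out 1 mouse gave 5 to 9 members at 24 h, lowest without vehicle mouse 1 or 24 h mouse 4 (5 each) or vehicle mouse 2 (6), and 9 to 15 at 48 h, lowest without vehicle mouse 1 (9) or 2 (10). Over all tested genes 13.9%, 13.9% and 14.1% passed in these 3 fits at 24 h, near the share of the members there, and 19% and 19.4% in the 2 at 48 h.

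**Figure D2:**
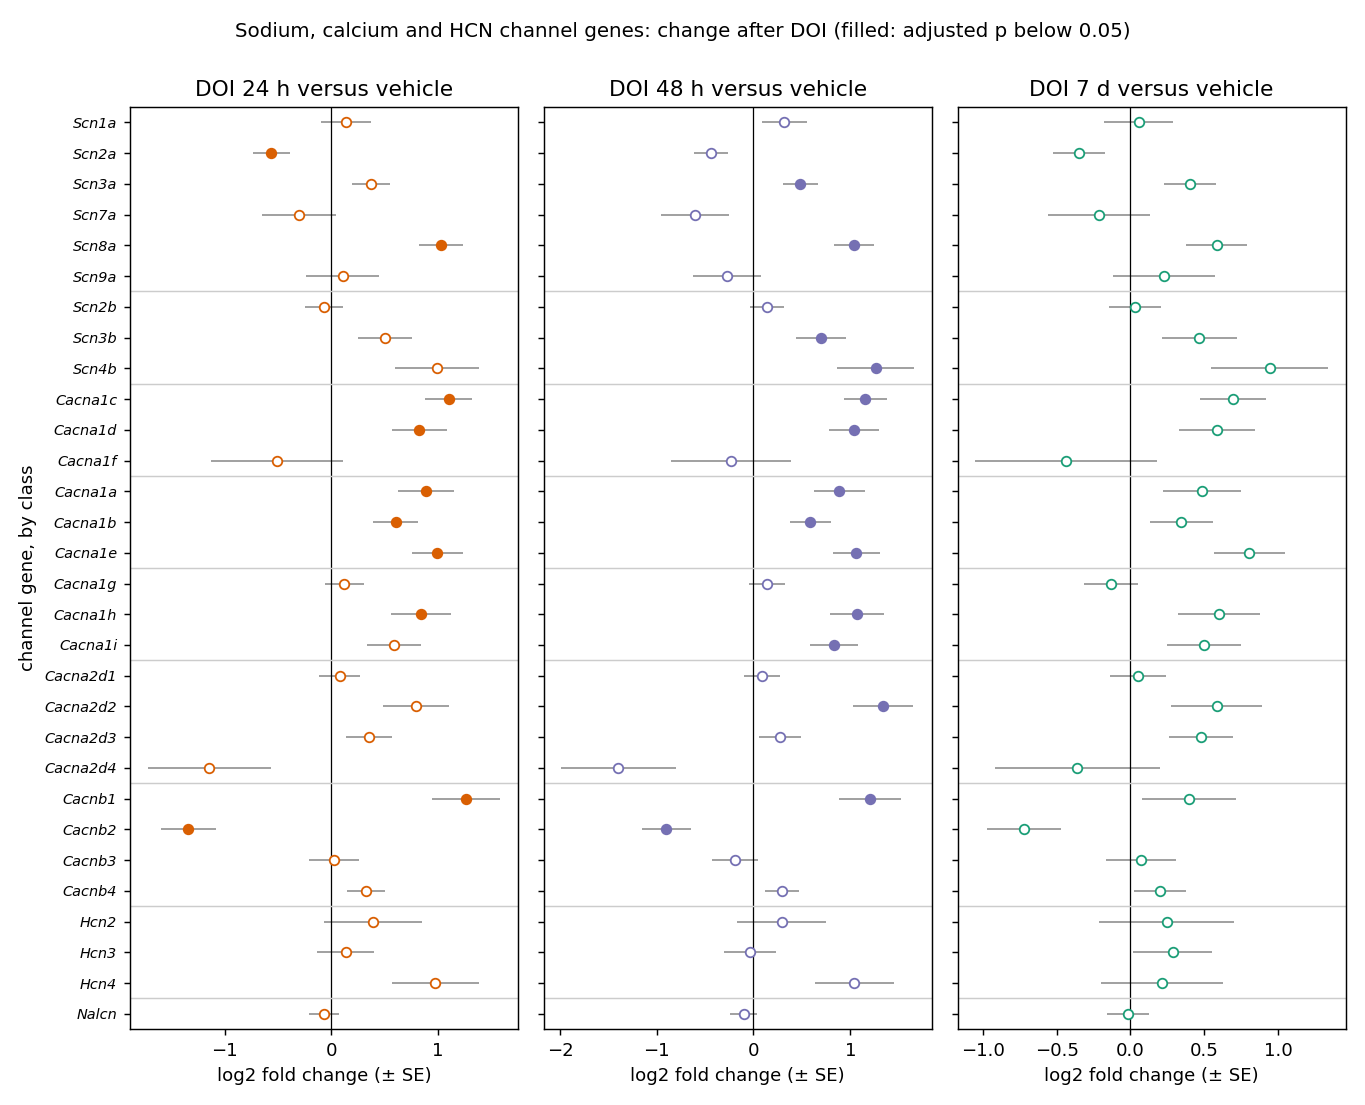
Log2 fold change against vehicle (x axis, with its standard error) of 30 tested channel genes (y axis, by class) at 24 h, 48 h and 7 days, with 4 mice a group; filled points passed the threshold and the x scale differs between panels. Filled points number 10 at 24 h, 14 at 48 h and 0 at 7 days.

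Among the 10 sodium channel alpha subunits, Scn8a rose and Scn2a fell at 24 h. At 48 h Scn3a and Scn8a rose. Scn8a (chromosome 15, 100869858 to 101045938) encodes Nav1.6, the channel concentrated at the axon initial segment and nodes of Ranvier. Scn8a was at 284, 298, 293 and 300.1 CPM in vehicle mice 1 to 4 and at 717, 572, 554 and 558 CPM in the 24 h mice. At 48 h Scn8a was at 507, 622, 661 and 621 CPM, and at 7 days at 310.3, 616, 306 and 529 CPM. All 8 mice at 24 h and 48 h were above all vehicle mice, and 7 days mice 2 and 4 were with the treated mice of the earlier times. The log2 fold change was 1.03 (adjusted p = 0.00372, SE 0.21) at 24 h and 1.04 (adjusted p = 0.00276, SE 0.21) at 48 h by edgeR with Benjamini-Hochberg adjustment. Both calls held in all 8 fits that left out a mouse.
Scn2a (chromosome 2, 65620771 to 65767447) encodes Nav1.2, the early and dendritic pore of pyramidal neurons. Scn2a was at 745, 543, 649 and 712 CPM in vehicle mice 1 to 4 and at 386, 520, 463 and 426 CPM in the 24 h mice. At 48 h Scn2a was at 530.3, 403, 538 and 487 CPM, and at 7 days at 658, 435, 492 and 494 CPM. At 24 h and at 48 h every mouse was below every vehicle mouse. Scn2a fell at 24 h, with a log2 fold change of -0.56 (adjusted p = 0.0274, SE 0.17) by edgeR, and its 48 h value was -0.44 (adjusted p = 0.0655, SE 0.17), not past the threshold. The 24 h call was lost without vehicle mouse 1, 3 or 4 or 24 h mouse 1 or 4, with adjusted p up to 0.0786. It was also lost with scaling by total counts only (adjusted p = 0.0574), with no filter on low counts (0.0568), without the 3 mice of another header number (0.0559) and with each covariate, all by edgeR.
As a description chosen after the values were seen, the ratio of Scn8a to Scn2a, each as CPM per kb of exon, was 0.311, 0.448, 0.368 and 0.344 in vehicle mice. It was 1.52, 0.897, 0.975 and 1.07 at 24 h, 0.780, 1.26, 1.00 and 1.04 at 48 h, and 0.385, 1.16, 0.508 and 0.875 at 7 days. No treated mouse of 24 h or 48 h overlapped the vehicle mice in this ratio.
Scn3a encodes Nav1.3, the sodium channel most abundant in the developing brain. Scn3a was at 159.8, 117, 155 and 182 CPM in vehicle mice 1 to 4 and at 200, 209, 189.7 and 197 CPM in the 24 h mice. At 48 h Scn3a was at 207, 249, 199 and 205 CPM, and at 7 days at 171, 236, 160.2 and 247 CPM. The groups at 24 h and 48 h lay above the vehicle mice, 48 h by 0.49 (adjusted p = 0.04498, SE 0.18) on the log2 scale (edgeR), and the 24 h value of 0.37 (adjusted p = 0.128, SE 0.18) did not pass. The 48 h call held in 1 of 8 fits that left out a mouse, the one without vehicle mouse 4, and was lost without each of the others, with adjusted p up to 0.1596. It was also lost with no filter on low counts (adjusted p = 0.209), with library 2 of each mouse alone (0.0574), with mouse number as a replicate block (0.0638), without the 3 mice of another header number (0.112) and with each covariate, all by edgeR.
Scn1a, Scn7a and Scn9a did not pass at any time. Scn1a, which encodes Nav1.1 and is prominent in fast-spiking interneurons, had group means ± SD over 4 mice of 443 ± 45.9 CPM (vehicle), 486 ± 62.9 (24 h), 553 ± 149 (48 h) and 460.5 ± 172 (7 days). Scn7a, which encodes the sodium-sensing Nax, was at 9.07 ± 3.67, 7.33 ± 1.97, 5.96 ± 1.25 and 7.82 ± 1.68 CPM in the same order. Scn9a, the nociceptor channel Nav1.7, was at 29.2 ± 6.02, 31.4 ± 6.65, 24.1 ± 12.1 and 34.3 ± 13.6 CPM.
The skeletal muscle gene Scn4a had 0 to 3 counts per mouse and the sensory neuron gene Scn11a 0 or 1. Scn10a, also known from sensory neurons, had 0 to 10 counts in 15 mice and 46 in 7 days mouse 4. A floor of 3 counts was taken as the limit that a count of 0 allows, and since reads carried no molecular identifiers it covers counting error only.

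Among the sodium channel beta subunits, Scn3b and Scn4b rose at 48 h, and with the Rn18s-rs5 share as a covariate their log2 fold changes turned to -0.39 and -0.31. Scn3b associates with the pore without a covalent bond. Scn3b was at 79.03, 80.2, 89.6 and 78.2 CPM in vehicle mice 1 to 4 and at 60.5, 159, 118 and 126 CPM in the 24 h mice. At 48 h Scn3b was at 146, 127, 110.1 and 146 CPM, and at 7 days at 92.6, 158, 71.5 and 130.1 CPM. Every 48 h mouse exceeded every vehicle mouse for Scn3b, whereas 24 h mouse 1 was below them. Scn3b was 0.50 (adjusted p = 0.155, SE 0.26) at 24 h and rose by 0.70 (adjusted p = 0.0466, SE 0.26) at 48 h on the log2 scale (edgeR), a call that was lost in each of the 8 fits without 1 vehicle or 48 h mouse (adjusted p up to 0.102) and with library 1 of each mouse alone (0.0644).
Scn4b was at 7.37, 15.6, 14.3 and 15.3 CPM in vehicle mice 1 to 4 and at 24.98, 17.9, 43.9 and 17.9 CPM in the 24 h mice. At 48 h Scn4b was at 30.4, 31.3, 30.8 and 33.5 CPM, and at 7 days at 14.7, 42.02, 9.46 and 34.98 CPM. Scn4b encodes the subunit linked to resurgent sodium current and is known for its high expression in the striatum. Its 48 h values lay close together and above all vehicle mice, and the log2 fold change was 0.99 (adjusted p = 0.0722, SE 0.40) at 24 h, short of the threshold, and 1.26 (adjusted p = 0.0241, SE 0.40) at 48 h (edgeR). Without vehicle mouse 1, the lowest, the 48 h value was 1.07 with an adjusted p of 0.0818. The summed level of the 8 striatal neuron markers was 244 to 416 CPM in vehicle mice, 169 to 287 at 24 h, 283 to 548 at 48 h, and 598, 1721, 364 and 1164 CPM in 7 days mice 1 to 4. The 7 days mice with the most Scn4b, mice 2 and 4, were also those with the most of these markers. The part of striatal cells in the Scn4b values was not tested, and Adora2a of that list was at 0 in 9 of 16 mice.
Scn2b, the disulfide-linked beta subunit, had means ± SD over 4 mice of 106 ± 8.74 CPM (vehicle), 101 ± 15.1 (24 h), 117 ± 18.2 (48 h) and 108 ± 20.98 (7 days), and passed at no time.

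The pore-forming alpha1 subunits of calcium channels were called on the higher side alone. Of the 9 tested, 6 passed at 24 h and 7 at 48 h, all higher, against 13.8% and 16.8% of all tested genes called higher. The groups did not overlap for 4 of the 9 at 24 h and for 7 at 48 h, all on the higher side, against 18.5% and 19.2% of all tested genes. Their median log2 fold change was 0.82 at 24 h and 0.89 at 48 h, beside 0.35 and 0.30 over all tested members.
In the L-type family, Cacna1c (chromosome 6, 118587240 to 119196890) encodes Cav1.2, which couples depolarisation to transcription in neurons. Cacna1c was at 21.5, 30.7, 26.9 and 25.8 CPM in vehicle mice 1 to 4 and at 54.7, 61.6, 48.4 and 60.01 CPM in the 24 h mice. At 48 h Cacna1c was at 48.96, 70.6, 62.1 and 51.98 CPM, and at 7 days at 29.7, 44.1, 33.5 and 62.7 CPM. Each mouse at 24 h and 48 h was above each vehicle mouse. Cacna1c rose by 1.10 (adjusted p = 0.00366, SE 0.22) at 24 h and 1.16 (adjusted p = 0.00233, SE 0.22) at 48 h on the log2 scale (edgeR), and both calls held in all 8 fits without a mouse.
Cacna1d (chromosome 14, 30039939 to 30491455) encodes Cav1.3, the L-type pore that opens at more negative voltages. Cacna1d was at 49.2, 60.3, 64.7 and 74.5 CPM in vehicle mice 1 to 4 and at 105, 125, 90.1 and 119.5 CPM in the 24 h mice. At 48 h Cacna1d was at 124, 121, 153 and 114 CPM, and at 7 days at 53.9, 122, 59.5 and 139 CPM. No 24 h or 48 h value fell inside the vehicle range. Cacna1d rose by 0.82 (adjusted p = 0.0276, SE 0.26) at 24 h and 1.04 (adjusted p = 0.00739, SE 0.26) at 48 h on the log2 scale (edgeR). The 48 h call held in all 8 fits without a mouse, and the 24 h call was lost without vehicle mouse 1, 2 or 3 or 24 h mouse 2 or 4 (adjusted p up to 0.0892). Genes of the other strand, Chdh among them, share 4.85% of its exon bases, and the counting did not separate strands.
Cacna1f, the retinal L-type pore, was at 2.49 ± 0.539, 1.73 ± 0.884, 2.11 ± 1.38 and 1.84 ± 1.36 CPM in the 4 groups and passed at no time. The skeletal muscle gene Cacna1s had 0 to 5 counts in 15 mice and 19 in 48 h mouse 1, and was not tested.

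All 3 Cav2 genes, whose channels trigger transmitter release, rose at 24 h and at 48 h. Cacna1e (chromosome 1, 154390731 to 154884501) encodes the R-type Cav2.3. Cacna1e was at 185, 184, 301 and 306 CPM in vehicle mice 1 to 4 and at 437, 613, 431 and 463 CPM in the 24 h mice. At 48 h Cacna1e was at 478, 502, 485 and 570.1 CPM, and at 7 days at 298, 541, 296 and 569.5 CPM. Vehicle mice fell into a lower pair (1 and 2) and a higher pair (3 and 4), and all 8 mice of 24 h and 48 h were above both. The log2 fold change was 1.00 (adjusted p = 0.00855, SE 0.24) at 24 h and 1.06 (adjusted p = 0.00505, SE 0.24) at 48 h (edgeR), and neither call was lost in the 8 fits without a mouse.
Cacna1a (chromosome 8, 84338639 to 84640246) encodes the P/Q-type Cav2.1. Cacna1a was at 49.8, 55.5, 58.1 and 67.3 CPM in vehicle mice 1 to 4 and at 152, 86.9, 64.3 and 124 CPM in the 24 h mice. At 48 h Cacna1a was at 84.5, 133, 135 and 74.05 CPM, and at 7 days at 54.8, 90.2, 77.5 and 101 CPM. At 24 h mouse 3 lay inside the vehicle range, and at 48 h all mice were above it. The log2 fold change was 0.89 (adjusted p = 0.0221, SE 0.26) at 24 h and 0.89 (adjusted p = 0.0189, SE 0.26) at 48 h (edgeR). The call was lost at 24 h without vehicle mouse 1 or 2 or 24 h mouse 1 or 4 (adjusted p up to 0.0827) or without the 3 mice of another header number (0.0829), and at 48 h without vehicle mouse 1 or 2 or 48 h mouse 2 or 3 (up to 0.0639).
Cacna1b (chromosome 2, 24603887 to 24763152) encodes the N-type Cav2.2. Cacna1b was at 87.05, 89.95, 113 and 138 CPM in vehicle mice 1 to 4 and at 187, 156, 134 and 173 CPM in the 24 h mice. At 48 h Cacna1b was at 144, 191, 157 and 151 CPM, and at 7 days at 89, 154, 118 and 181 CPM. The lowest 24 h mouse was just below the highest vehicle mouse, and the 48 h mice were all above it. Cacna1b rose by 0.60 (adjusted p = 0.0456, SE 0.21) and 0.59 (adjusted p = 0.04405, SE 0.21) on the log2 scale (edgeR). It kept the threshold in 2 of 8 fits at 24 h (without vehicle mouse 4 or 24 h mouse 3) and in 1 of 8 at 48 h (without vehicle mouse 4), with adjusted p up to 0.136 and 0.129 in the others. Both calls were also lost with no filter on low counts (adjusted p = 0.0867 at 24 h and 0.103 at 48 h), with library 1 of each mouse alone (0.0524 and 0.0517), without the 3 mice of another header number (0.108 and 0.116) and with each covariate, all by edgeR.

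In the T-type family, Cacna1h rose at both times, Cacna1i at 48 h, and Cacna1g at neither. Cacna1h was at 12.8, 11.8, 18.8 and 16.4 CPM in vehicle mice 1 to 4 and at 15.5, 33.9, 27.8 and 29.7 CPM in the 24 h mice. At 48 h Cacna1h was at 23.03, 42.2, 24.9 and 35.6 CPM, and at 7 days at 18.2, 29.02, 17.2 and 26.2 CPM. Cacna1h (chromosome 17, 25374285 to 25433783) encodes Cav3.2. Of the 24 h and 48 h mice, only 24 h mouse 1 lay within the vehicle range, and the log2 fold change was 0.84 (adjusted p = 0.0352, SE 0.28) at 24 h and 1.07 (adjusted p = 0.00957, SE 0.28) at 48 h (edgeR). The 48 h call held in all 8 fits without a mouse, and the 24 h call held without vehicle mouse 3 or 24 h mouse 1 and was lost without any of the other 6 (adjusted p up to 0.106).
Cacna1i was at 28.1, 29, 27.02 and 22.2 CPM in vehicle mice 1 to 4 and at 36.9, 40.2, 44.5 and 38.5 CPM in the 24 h mice. At 48 h Cacna1i was at 45.9, 45.4, 46.2 and 51.7 CPM, and at 7 days at 22.9, 66.3, 29.4 and 31.8 CPM. Cacna1i, which encodes Cav3.3, did not overlap the vehicle mice at 24 h or 48 h. Its log2 fold change was 0.59 (adjusted p = 0.0914, SE 0.25) at 24 h, short of the threshold, and 0.83 (adjusted p = 0.02005, SE 0.25) at 48 h (edgeR), where it lost the threshold without vehicle mouse 4 (0.76, adjusted p = 0.0605) and turned to -0.12 with the Rn18s-rs5 share as a covariate. Cacna1g, which encodes Cav3.1, had means ± SD over 4 mice of 54.1 ± 5.68 CPM (vehicle), 58.95 ± 7.51 (24 h), 59.7 ± 10.3 (48 h) and 49.4 ± 9.41 (7 days).

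**Figure D3:**
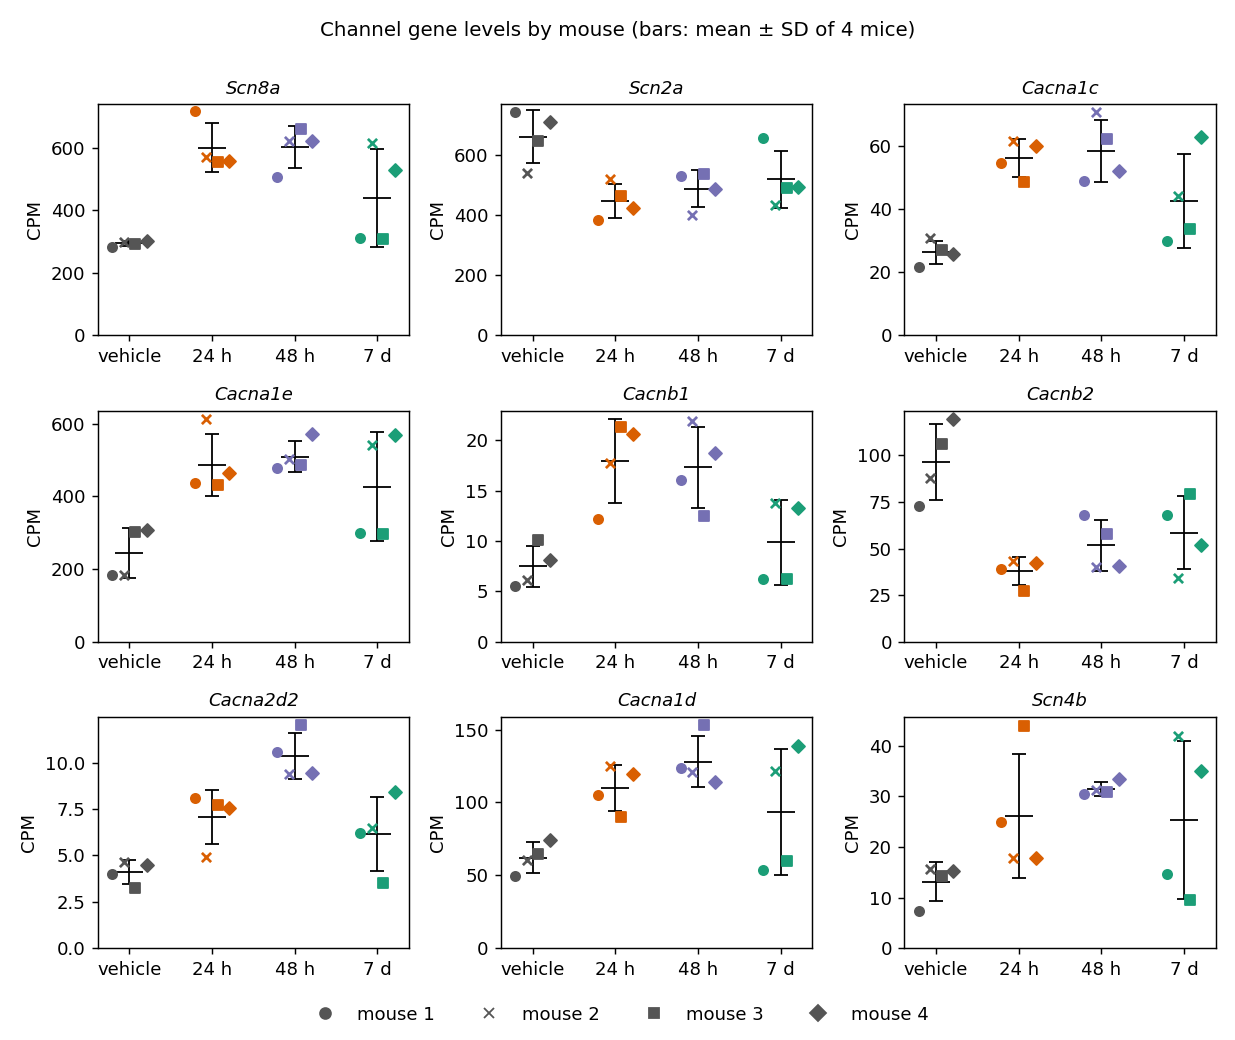
Level of 9 channel genes in each mouse, in TMM-scaled CPM from 0, by group; symbols mark mice 1 to 4 and bars the mean ± SD of 4 mice. For Scn8a the vehicle mice sit between 284 and 300.1 CPM and the 24 h and 48 h mice between 507 and 717 CPM, while 7 days mice 2 and 4 sit at 616 and 529 CPM and mice 1 and 3 at 310.3 and 306 CPM.

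Of the 4 alpha2delta subunits, extracellular proteins that raise channel density, only Cacna2d2 passed, at 48 h. Cacna2d2 was at 3.97, 4.66, 3.24 and 4.48 CPM in vehicle mice 1 to 4 and at 8.07, 4.91, 7.73 and 7.58 CPM in the 24 h mice. At 48 h Cacna2d2 was at 10.6, 9.37, 12.01 and 9.44 CPM, and at 7 days at 6.18, 6.499, 3.503 and 8.39 CPM. Both treated groups lay above all vehicle mice, by a narrow margin for 24 h mouse 2. The log2 fold change of Cacna2d2 (chromosome 9, 107399612 to 107529343) was 0.79 (adjusted p = 0.0678, SE 0.31) at 24 h and 1.34 (adjusted p = 0.00553, SE 0.31) at 48 h (edgeR), and the 48 h call held in all 8 fits without a mouse. It was lost with library 2 of each mouse alone and with libraries as units (duplicateCorrelation), as well as with each covariate.
Cacna2d4 was lower in every mouse at 24 h and 48 h than in any vehicle mouse, at 5.38, 3.18, 3.63 and 4.28 CPM in vehicle mice, 1.83, 0.893, 2.66 and 2.01 CPM at 24 h and 0.435, 1.51, 3.11 and 1.197 CPM at 48 h, and did not pass. Cacna2d1 had means ± SD over 4 mice of 377 ± 42.5 CPM (vehicle), 397 ± 63.2 (24 h), 401 ± 62.3 (48 h) and 389.7 ± 91.4 (7 days). Cacna2d3 was at 157 ± 6.59, 200.4 ± 45.2, 189.8 ± 33.2 and 219 ± 71.5 CPM in that order, and its vehicle mice overlapped those of each DOI group.

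The calcium channel beta subunits, cytosolic partners that carry the pore to the membrane and set its inactivation, split: Cacnb1 rose, Cacnb2 fell, and Cacnb3 and Cacnb4 passed at no time. Cacnb1 was at 5.57, 6.14, 10.1 and 8.08 CPM in vehicle mice 1 to 4 and at 12.2, 17.7, 21.3 and 20.6 CPM in the 24 h mice. At 48 h Cacnb1 was at 16.1, 21.9, 12.4 and 18.8 CPM, and at 7 days at 6.27, 13.8, 6.19 and 13.3 CPM. Cacnb1 (chromosome 11, 98001508 to 98023034) was higher in each mouse of 24 h and 48 h than in any vehicle mouse. Its log2 fold change was 1.26 (adjusted p = 0.0112, SE 0.32) at 24 h and 1.21 (adjusted p = 0.01102, SE 0.32) at 48 h (edgeR), and both calls held in all 8 fits without a mouse.
Cacnb2 was at 72.6, 87.7, 106 and 119 CPM in vehicle mice 1 to 4 and at 39.3, 43.5, 27.3 and 42.2 CPM in the 24 h mice. At 48 h Cacnb2 was at 67.8, 40.3, 57.8 and 40.8 CPM, and at 7 days at 68.3, 34.4, 79.3 and 51.9 CPM. For Cacnb2 (chromosome 2, 14603088 to 14987908), the highest 24 h mouse was below the lowest vehicle mouse, and the 48 h mice were all lower than the vehicle mice as well. Cacnb2 fell, with a log2 fold change of -1.34 (adjusted p = 0.00329, SE 0.26) at 24 h and -0.90 (adjusted p = 0.0147, SE 0.25) at 48 h by edgeR, and both calls held in all 8 fits without a mouse. Genes of the other strand (Gm10849, Gm10848 and Gm13269) share 7.32% of its exon bases, and the counting did not use strand.
Means ± SD of Cacnb3 were 106 ± 7.74, 107 ± 17.2, 92.6 ± 27.2 and 111 ± 36.5 CPM in vehicle, 24 h, 48 h and 7 days mice. Cacnb4, the beta subunit mutated in the lethargic mouse, was at 218 ± 16.6, 273 ± 38.02, 268 ± 27.2 and 251 ± 59.9 CPM (SD, n = 4 each). Gene A430018G15Rik on the other strand shares 15.99% of the exon bases of Cacnb4. As a description chosen after the values were seen, the ratio of Cacnb4 to Cacnb2, each as CPM per kb of exon, was 2.80 to 4.31 in vehicle mice, 7.95 to 15.6 at 24 h and 6.31 to 10.4 at 48 h. At 7 days it was 4.77, 13.2, 3.39 and 8.34.

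Among the HCN channels, Hcn2, Hcn3 and Hcn4 passed at no time. Hcn4, the sinoatrial pacemaker channel, was at 2.93, 1.93, 3.54 and 2.43 CPM in vehicle mice 1 to 4. Its 24 h mice were at 3.81, 5.95, 4.82 and 6.75 CPM, the 48 h mice at 8.55, 5.19, 2.52 and 6.12 CPM and the 7 days mice at 2.71, 2.24, 2.802 and 4.897 CPM. The 24 h mice were all above the vehicle mice, but Hcn4 did not pass. Hcn2 was at 2.78 ± 0.709, 3.65 ± 2.07, 3.396 ± 1.201 and 3.303 ± 0.562 CPM and Hcn3 at 36.1 ± 11.2, 39.6 ± 13.7, 35.3 ± 11.4 and 44.03 ± 6.02 CPM in vehicle, 24 h, 48 h and 7 days mice (SD, n = 4 each). Pklr on the other strand shares 17.1% of the exon bases of Hcn3.

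Nalcn had the smallest standard error of the members. Nalcn was at 162, 154, 159.8 and 175 CPM in vehicle mice 1 to 4 and at 160.1, 170.2, 156 and 132 CPM in the 24 h mice. At 48 h Nalcn was at 143, 144, 155 and 162 CPM, and at 7 days at 173, 174, 140.2 and 153 CPM. Its groups overlapped at every time, and the values were -0.07 (SE 0.14) at 24 h, -0.10 (SE 0.14) at 48 h and -0.02 (SE 0.14) at 7 days on the log2 scale. With total counts as the only scaling, the median over all genes moved from 0.03 to 0.14 at 24 h and from 0.02 to 0.12 at 48 h. Nalcn and Scn2b at 24 h, Hcn3 at 48 h and Nalcn at 7 days then changed sign, none of which had passed. The share of higher calls over all genes went from 57.0% to 67.3% at 24 h and from 55.8% to 64.2% at 48 h, and the members called became 9 higher and 2 lower at 24 h and 15 higher and 2 lower at 48 h.

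At 7 days the channel genes lay at separate places in different mice. By edgeR 0 of 33 members passed against vehicle, 10 had an unadjusted p below 0.05, and 1 passed by DESeq2 (Cacna1e, 0.82) and 2 with the libraries as units (Cacna1e and Cacnb2). Of all tested genes 0% passed by edgeR, 4.44% by DESeq2 and 1.97% with the libraries as units, and 16.8% were under 0.05 before adjustment. Among the 10 members under 0.05 before adjustment were Scn3a, Scn4b, Scn8a, Cacna1c, Cacna1d, Cacna1e, Cacna1h, Cacna2d3 and Cacnb2. The group did not overlap the vehicle mice for 1 member on the higher side, Scn8a, and 1 on the lower side, against 5.85% of all tested genes (2.81% higher and 3.04% lower).
Single mice fell into 2 patterns. Of the 10 members called at both 24 h and 48 h, mouse 2 was past the vehicle range on the called side for 10 and mouse 4 for 10. Of all 3742 tested genes called at both times in 1 direction, 96.5% and 94.9% were past it on that side in these 2 mice. Mouse 1 was inside the vehicle range for 8 and past it on the called side for 2, and mouse 3 for 7 and 3, where 58.9% and 50.2% of the 3742 genes were inside it. Mice 2 and 4 each had 9 of the 10 inside the range of the 24 h and 48 h mice, and mice 1 and 3 had 1 and 2, against 79.9% (mouse 2), 76.8% (mouse 4), 9.33% (mouse 1) and 10.9% (mouse 3) of the 3742 genes. These places are a description, since the genes were chosen for differing from the same vehicle mice. Mice 2 and 4 were also those with 6327 and 4737 CPM of Rn18s-rs5, the higher mitochondrial shares (0.130% and 0.114%) and the higher striatal marker sums, and the part of these in the channel values was not tested. Leaving out mouse 1 gave 3 members (Cacna1e, Cacna1c and Scn8a) and leaving out mouse 3 gave 5 (those 3, Cacnb2 and Scn4b), where 7.26% and 6.28% of all tested genes passed.

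**Figure D4:**
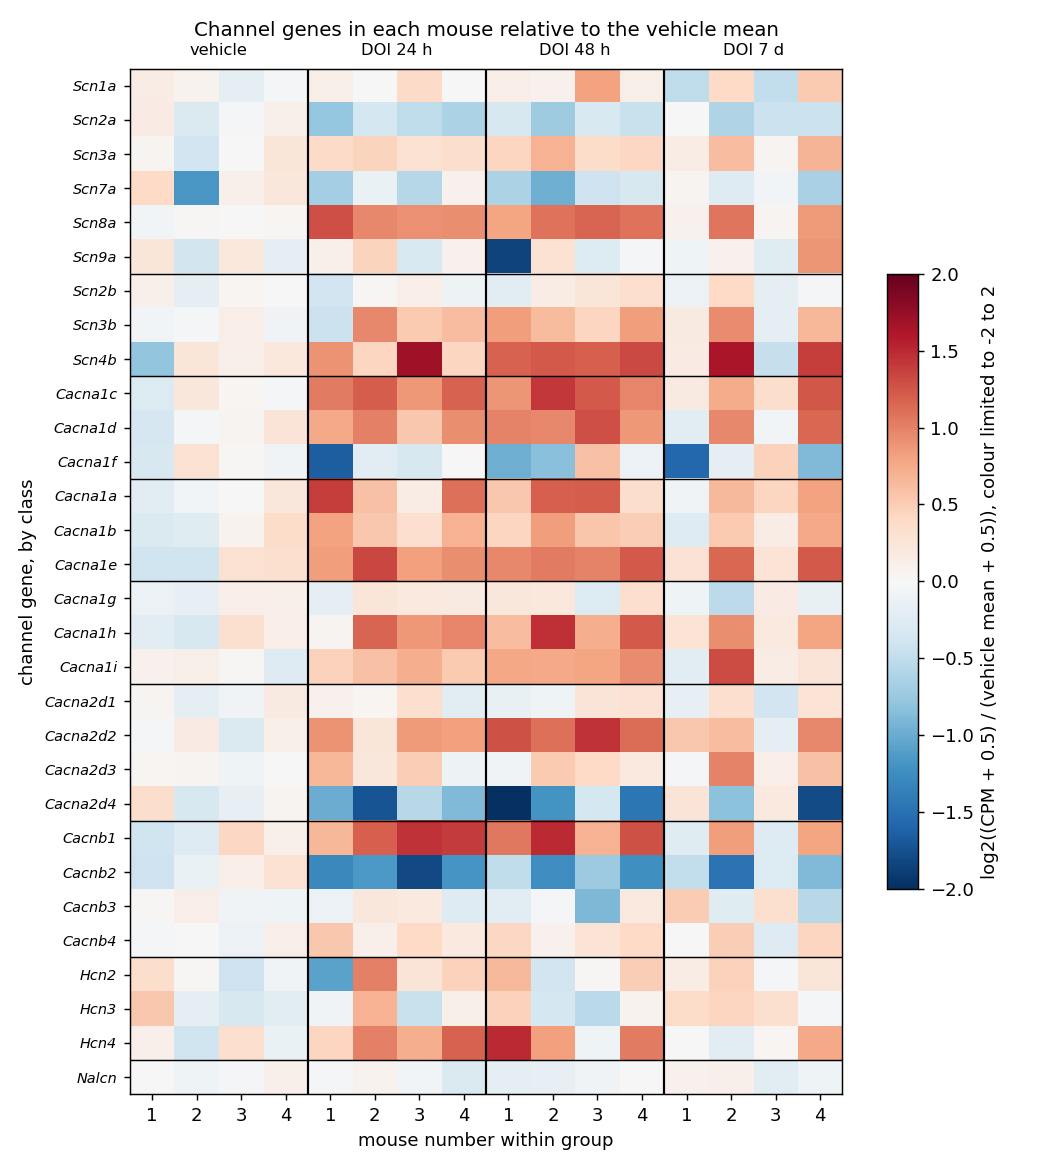
Log2 ratio of each mouse (columns, by group) to the vehicle mean for 30 tested channel genes (rows, by class), with 0.5 CPM added to both and colours limited to the range from -2 to 2. At 7 days the columns of mice 2 and 4 carry the colours of the 24 h and 48 h columns for the members drawn that were called at both times, and those of mice 1 and 3 mostly do not.

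Neighbouring DOI times were compared directly, and 7 days was not compared with 24 h. For 48 h against 24 h 0 of 33 passed, 0 had an unadjusted p below 0.05 and 0 passed by DESeq2, with a median log2 difference of 0.06 and 0% of all tested genes called. For 7 days against 48 h 0 passed by edgeR and 0 by DESeq2, where 0% and 2.42% of all tested genes passed. Before adjustment 6 members were under 0.05 by edgeR (Scn8a, Cacna1c, Cacna2d2 and Cacnb1 among them), as were 2959 of all 17941 tested genes. A call at 24 h or 48 h alone is therefore not shown to differ between these times. Any difference among the 4 groups was called for 9 members (18.8% of all tested genes and 19.8% of protein-coding genes), among them Scn8a, Cacna1c, Cacna1d, Cacna1e, Cacna1h, Cacna2d2, Cacnb1 and Cacnb2.

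Among protein-coding genes the median fold change was higher in longer genes, and the members are given in the same bins. The tested members had a median genomic span of 115.9 kb, against 26.75 kb for tested protein-coding genes. Among protein-coding genes of at least 200 kb the median log2 fold change was 0.14 at 24 h and 0.23 at 48 h (27.2% and 32.9% called), and among those below 30 kb it was -0.16 and -0.23 (22.0% and 28.6% called). In between, those of 30 to 100 kb had -0.06 and -0.05 (27.2% and 31.2% called) and those of 100 to 200 kb 0.11 and 0.20 (22.6% and 30.1% called). The 9 members below 30 kb had medians of 0.13 at 24 h and 0.14 at 48 h, the 4 of 30 to 100 kb 0.91 and 1.06, the 10 of 100 to 200 kb 0.25 and 0.40, and the 10 of at least 200 kb 0.34 and 0.29. In the same order of span, 2 of 9, 1 of 4, 3 of 10 and 6 of 10 members passed at 24 h and 4 of 9, 2 of 4, 5 of 10 and 5 of 10 at 48 h, counts too small to order the bins. The part of gene length in the member values was not tested.

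Genes for proteins that bind these channels were read in the same fit, from a list of 34 symbols of which 27 were tested. At 24 h 9 passed, 7 higher and 2 lower, and at 48 h 11 passed, 8 higher and 3 lower. These are 33.3% and 40.7% of the tested partners, against 24.2% and 30.1% of all tested genes. At 7 days 0 passed by edgeR and 7 were under 0.05 before adjustment. Nfasc, which encodes neurofascin, an adhesion protein of the axon initial segment and node, had the smallest p of the 9 sodium channel partners at 24 h. It rose from 57.2 ± 3.06 CPM in vehicle mice to 148 ± 21.2 at 24 h and 161 ± 23.7 at 48 h (SD, n = 4 each), with an edgeR adjusted p of 0.00308 and 0.00171. Rimbp2, an active zone protein that links calcium channels to release sites, was the calcium channel partner, at 25.8 ± 3.18 CPM in vehicle mice, 98.9 ± 42.4 at 24 h and 83.0 ± 9.01 at 48 h (edgeR adjusted p of 0.00402 and 0.00612).
Unc79, a subunit of the NALCN complex, rose while Nalcn did not pass. Its mean ± SD over 4 mice was 60.5 ± 4.65 CPM (vehicle), 151 ± 20.1 (24 h), 172 ± 26.1 (48 h) and 125 ± 72 (7 days), with log2 fold changes of 1.32 (edgeR adjusted p = 0.00621, SE 0.30) and 1.51 (adjusted p = 0.00267, SE 0.30) at 24 h and 48 h. The partner of HCN channels with the smallest p was Kctd3, at 98.3 ± 16.7 CPM in vehicle mice and 89.6 ± 16.3 at 24 h, which did not pass.

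Marker sums of other cell types moved with the groups in part. The 6 excitatory neuron markers summed to 468 to 531 CPM in vehicle mice, 908 to 2372 at 24 h and 1417 to 2154 at 48 h, and to 483, 1361, 432 and 1229 CPM in 7 days mice 1 to 4. This sum followed Camk2a, whose mean was 180.1 CPM in vehicle mice and 1405 CPM at 24 h, and 2 of the 6 passed at each of 24 h and 48 h, both higher. The other 4 had log2 fold changes below 0 at both times, with Slc17a7 at a mean of 141.5 CPM in vehicle mice and 81.5 CPM at 24 h, and the median over the 6 was -0.12 at 24 h and -0.30 at 48 h. The 7 interneuron markers summed to 1662 to 3141 CPM in vehicle mice, 1971 to 2828 at 24 h and 1968 to 3015 at 48 h, with overlap at each time. Of these 7, 3 passed at 24 h (1 higher and 2 lower) and 2 at 48 h (1 higher and 1 lower). Astrocyte markers (6) summed to 622 to 690 CPM in vehicle mice, 704 to 1099 at 24 h and 604 to 1049 at 48 h, and 0 of the 5 tested passed by edgeR at either time, with 1 under 0.05 before adjustment at each. Oligodendrocyte markers (5) summed to 148 to 325, 148 to 227 and 174 to 228 CPM, and microglia markers (5) to 68.6 to 106, 40.0 to 83.8 and 44.5 to 74.0 CPM in the same order. Of the oligodendrocyte markers 1 passed at 24 h, lower, and 0 at 48 h (1 under 0.05 before adjustment), and of the 4 tested microglia markers 0 passed by edgeR at either time (0 and 2 under 0.05 before adjustment). The 4 endothelial markers summed to 0.973 to 1.51 CPM in vehicle mice, 2.16 to 8.23 CPM at 24 h, without overlap, and 1.01 to 3.85 CPM at 48 h. The 4 oligodendrocyte precursor markers summed to 13.7 to 33.3, 14.4 to 19.2 and 13.6 to 20.7 CPM, and of the 3 tested 1 passed at 24 h, higher, and 2 at 48 h, 1 in each direction. The part of these in the channel values was not tested.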

How the data were processed

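Per the file headers, the deposited counts per gene were made by the authors with featureCounts v2.0.0, with no strand option. Trim Galore 0.6.5, Bowtie2 2.4.1, featureCounts and the build mm10 stand in the submitters' processing notes, and the RNA aligner is not given in the sources used here. Counts of the 2 libraries of each of 16 mice were summed, which gave 5834248 to 12354785 counts per mouse. Differences between groups with 4 mice each were tested with edgeR 4.0.16 (R 4.3.3) by quasi-likelihood over all 16 mice, with TMM scaling, filterByExpr (17941 of 55401 gene IDs kept) and Benjamini-Hochberg adjustment, at a threshold of 0.05. P-values measure the spread between mice. CPM are TMM-scaled, except the Rn18s-rs5 values, which are per total counts. Fold changes use a prior count of 2. The model was tested on simulated data. ChIP-seq samples were not analysed here.

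The members and lists were chosen with earlier results of these data known. All members were to be named, the called ones with each mouse (3 tested members count in the totals and are not reported here singly), and for each partner list the gene with the smallest p at 24 h. The striatal, excitatory, interneuron and glial marker lists are checks of cell content. Same-numbered mice were not paired: their deviations correlated at -0.282 to 0.244 over 24 pairs. The file header holds another mouse number than the label in 3 cases (mouse 1 of 24 h, mouse 2 of 48 h, mouse 2 of 7 days), and the label was used. Alternatives were DESeq2 1.42.0, other scalings, filters, libraries and samples, limma 3.58.1 with libraries as units (duplicateCorrelation), covariates and a replicate block. The gene name table held a symbol for 99.5% of gene IDs.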

Additional observations from a re-analysis of the deposited data

Results flagged for a closer look

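In 9 of 120 sets of 4 mice, 1 mouse stood apart from the other 3 by Dixon's criterion, where chance gives about 1 in 20 sets, or 6 here. In 48 h mice these were mouse 3 for Scn1a (776 CPM, next 485), mouse 2 for Scn3a (249 CPM, next 207) and mouse 4 for Cacna1i (51.7 CPM, next 46.3). At 24 h they were mouse 1 for Scn8a (717 CPM, next 572), mouse 1 for Cacna1g (47.8 CPM, next 61.6) and mouse 2 for Cacna2d2 (4.91 CPM, next 7.58). Among vehicle mice they were mouse 3 for Scn3b (89.6 CPM, next 80.2), mouse 1 for Scn4b (7.37 CPM, next 14.3) and mouse 1 for Hcn3 (52.7 CPM, next 31.8). Scn3a, Scn3b and Scn4b lost their 48 h call without the mouse named here. Of the 8 fits without 1 mouse, Scn3a lost that call in 7, Scn3b in 8 and Scn4b in 1.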

How the results depend on the processing

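The number of members past the threshold at 24 h (12 members) was 1 with the mitochondrial share and 0 with the Rn18s-rs5 share as a covariate, 10 to 17 with the other settings and 5 to 9 without 1 mouse. At 48 h (16 members) it was 0 and 0 with these covariates, 13 to 18 with the other settings and 9 to 15 without 1 mouse. At 7 days (0 members) it was 1 with DESeq2, 1 with no filter on low counts, 2 with libraries as units (duplicateCorrelation) and 0 to 5 without 1 mouse, where 4.44%, 2.62%, 1.97% and 0% to 7.26% of all tested genes passed. For 48 h against 24 h it was 0 in each fit without 1 mouse (0 to 0). For 7 days against 48 h it was 2 with duplicateCorrelation, where 7.72% of all tested genes passed. Without 1 mouse it was 0 to 1, where 0% to 2.37% passed. The difference among the 4 groups (9 members) gave 14 with duplicateCorrelation, where 30.3% of all tested genes passed. Without 1 mouse it gave 3 to 10, where 8% to 24.3% passed. With the mitochondrial share it gave 0 and with the Rn18s-rs5 share 0, where 0.00557% and 0.0279% passed. With mouse number as a replicate block the counts were 12, 16 and 0 at 24 h, 48 h and 7 days, 0 and 0 between the DOI times and 7 among the 4 groups. With the Rn18s-rs5 share as a covariate, log2 fold changes reversed for Cacna1d at 24 h (-0.34) and for Scn3b (-0.39), Scn4b (-0.31), Cacna1d (-0.18) and Cacna1i (-0.12) at 48 h; the cause was not tested. Genes near the floor of 3 counts per mouse, such as Scn4a, are limited by depth.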
